A study of Mus musculus with 4 samples.

Results

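The adventitial fibroblast nuclei described here were selected from 4 single-nucleus RNA libraries of mouse aortic tissue by the genes detected in each nucleus. A nucleus was a member when at least 4 of 10 marker genes (Pi16, Scara5, Opcml, Gfpt2, C7, Abca8a, Dpt, Lgi2, Lurap1l and Lama2) had a unique molecular identifier (UMI, the tag that counts 1 captured RNA molecule). It also had to carry a UMI of at most 1 of 10 exclusion genes, which were Cemip, Grin2a, Tnfrsf11b, Pecam1, Cdh5, Csf1r, Ms4a7, Adipoq, Ucp1 and Muc16. Of 107709 nuclei with at least 300 genes and at most 10% mitochondrial UMIs, 3918 were members. All mice carried a CA1 knock-in (mouse gene Car1, carbonic anhydrase 1) and were ApoE-/-, a genotype prone to atherosclerosis. The MTZ-after library came from mice on high-fat food that received methoxazolamide, abbreviated MTZ and labelled an inhibitor of CA1, once atherosclerosis was established. The MTZ-simultaneous library came from mice that received the diet and MTZ at the same time, the high-fat library from mice on high-fat food alone, and the untreated library from mice without treatment. Members numbered 794 in MTZ-after, 984 in MTZ-simultaneous, 509 in high-fat and 1631 in untreated. Age, sex, the number of animals behind a library, the dose of MTZ, and the promoter and insertion site of the knock-in were not given in the sources used here.

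Adventitial fibroblasts form the outer coat of the artery, where they make fibrillar collagens, elastic fibres, proteoglycans and hyaluronan. The adventitia also holds nerve fibres, small vessels and immune cells, and grades into perivascular fat. Fibroblasts that express Pi16 and Dpp4 are found in the adventitia of many organs, while those that express Col15a1 lie within the tissue itself. Both kinds read growth factors, mechanical load and inflammatory signals through rapidly transcribed genes such as the Fos, Egr and Nr4a families.

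With 1 library per group the spread between animals is unknown, and no test between groups was made. Levels are given in CPM, the UMIs of a gene divided by all UMIs of the nuclei named and scaled to the same total, and intervals are exact 95% intervals that cover counting error only. The 794 MTZ-after members had a median of 1216 UMIs, against 1739 in the 984 MTZ-simultaneous members, 1464 in the 509 high-fat members and 2294 in the 1631 untreated members. In sum the members held 1217229, 2301130, 898473 and 4646932 UMIs in MTZ-after, MTZ-simultaneous, high-fat and untreated. Of all barcodes 1.24% (1319) occurred in more than 1 library, and 1 member barcode did. The high-fat library had the most nuclei and the fewest members. Car1 stood at 58.3 CPM in MTZ-after members, 128 in MTZ-simultaneous, 72.3 in high-fat and 119 in untreated members. In the same order it stood at 56.6, 141, 77.9 and 120 CPM in nuclei with at least 3 T or NK cell markers, a type with no expected fibroblast transcripts (T-marker nuclei below). Apoe stood at 10.7, 7.39, 7.79 and 8.18 CPM in the members of these libraries. The altered parts of both genes were not given and the reads are 3' tags, so neither level checks the genotype.

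Most general fibroblast genes outside the rule stood above other kept nuclei in the members, which were not a pure population. A list of 20 general fibroblast genes was led by Ebf1, a transcription factor that also marks B cells. Ebf1 held 3101 CPM in MTZ-after members, 3263 in MTZ-simultaneous, 2614 in high-fat and 5809 in untreated members. The whole list, Ebf1 included, summed to 8864, 10042, 7577 and 14667 CPM in the same order. The other kept nuclei of those libraries held 4515, 4198, 4225 and 6111 CPM. Above the other nuclei stood 18, 19, 16 and 19 of the 20 genes, and Meox1 was at 0 in high-fat members. The same list summed to 3655, 2898, 4036 and 4388 CPM in T-marker nuclei, so its genes were also counted in nuclei of another type. How much of that sum was fibroblast RNA was not tested, since the list is not specific to fibroblasts. Another set was the nuclei with at least 2 of Cemip, Grin2a and Tnfrsf11b and fewer than 4 rule markers. They held 11190 CPM of the list in MTZ-after, 11650 in MTZ-simultaneous, 8899 in high-fat and 10130 in untreated. Members stood above them in untreated alone, so the list does not set members apart from this set. Endothelial genes, led by Mecom, summed to 3862, 2757, 3796 and 2311 CPM in the members, against 4968, 4470, 4556 and 3845 CPM in other nuclei. All 10 of these genes had UMIs in the members of each library. Pecam1, an endothelial adhesion receptor and one of the exclusion genes, was detected in 48.1% of MTZ-after, 49.0% of MTZ-simultaneous, 52.7% of high-fat and 37.3% of untreated members. The median member held 1216, 1739, 1464 and 2294 UMIs in these libraries. Pecam1 was detected in 57.9, 64.9, 63.0 and 62.1% of T-marker nuclei, whose medians were 1152, 1662, 1729 and 2099 UMIs.

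The number of rule markers detected sets how strongly a member resembles a fibroblast. Exactly 4 markers, the fewest allowed, were found in 65.1% of MTZ-after members, 49.7% of MTZ-simultaneous, 63.7% of high-fat and 33.9% of untreated members. At least 6 were found in 13.4, 26.1, 14.7 and 42.8%, which are 106, 257, 75 and 698 nuclei. Just outside the rule, 1328, 865, 893 and 807 nuclei had 3 markers. A further 437, 825, 474 and 1501 nuclei had at least 4 markers but more than 1 exclusion gene. The summed fibroblast list climbed with the number of markers, and the few nuclei with 8 to 10 markers held 18587 CPM in MTZ-after (10 nuclei), 18402 in MTZ-simultaneous (67), 14321 in high-fat (8) and 20826 in untreated (198). High-fat and MTZ-after members therefore came mostly from the margin of the rule and untreated members less so. For this reason key ratios are repeated below for members with at least 6 markers, a subset chosen after seeing the data. Among the rule genes, Lama2, which encodes a laminin chain, was detected in 69.9, 67.8, 63.1 and 77.8% of MTZ-after, MTZ-simultaneous, high-fat and untreated members. Pi16, a peptidase inhibitor, was detected in 41.2, 51.6, 53.8 and 50.2% of these members and in 10.9, 18.1, 18.98 and 12.4% of T-marker nuclei. These shares chose the members and are given as a description.

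**Figure D1:**
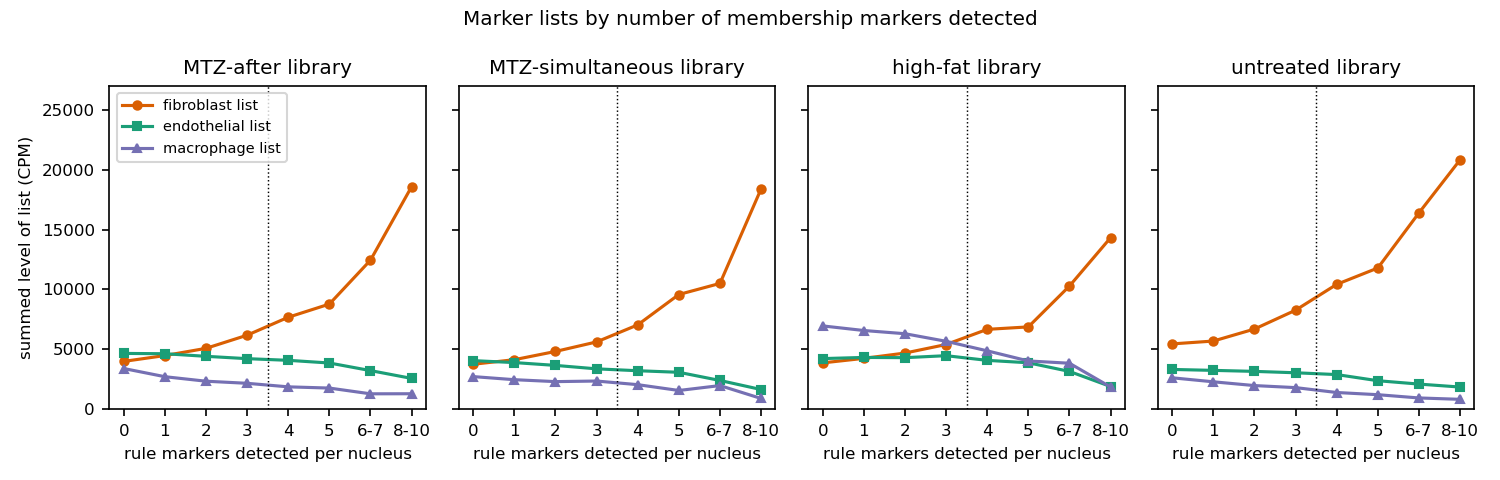
Summed level of the fibroblast, endothelial and macrophage marker lists (CPM, y axis) in kept nuclei grouped by the number of the 10 rule markers detected (x axis), 1 panel per library; nuclei right of the dotted line have at least the 4 markers the rule asks for. In each library the fibroblast list is highest at 8 to 10 markers (18587 CPM in MTZ-after, 18402 in MTZ-simultaneous, 14321 in high-fat, 20826 in untreated).

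Other cell types left traces in the members that differed between libraries. Macrophage genes, led by the secreted phosphoprotein Spp1, summed to 1733 CPM in MTZ-after members, 1752 in MTZ-simultaneous, 4393 in high-fat and 1086 in untreated members, against 2706, 2152, 6316 and 2127 CPM in other nuclei. All 14 macrophage genes had UMIs in the members of each library. Smooth muscle genes summed to 1331, 1485, 764 and 533 CPM in the members, and to 1384, 1894, 806 and 579 CPM in other nuclei. Brown adipocyte genes stood at 1248, 973, 599.9 and 2149 CPM in the members, with Elovl3, which elongates fatty acids, at 0 in MTZ-simultaneous and high-fat. Adrenal cortex genes reached 269 CPM in MTZ-after members, against 10.0, 3.34 and 6.46 CPM in MTZ-simultaneous, high-fat and untreated members. The steroid enzyme genes Cyp11a1, Cyp11b1, Hsd3b1 and Cyp21a1 were at 0 in members of all libraries but MTZ-after. Mesothelial genes summed to 127, 302, 33.4 and 101 CPM, and Msln, Lrrn4 and Upk1b were at 0 in high-fat members. White adipocyte genes held 2046, 1632, 2207 and 2482 CPM in the members, pericyte genes 239, 232, 168 and 215 CPM, T and NK cell genes 163, 49.98, 148 and 97.1 CPM, and B and plasma cell genes 177, 191, 293 and 68.0 CPM, each in the order MTZ-after, MTZ-simultaneous, high-fat and untreated. Schwann and neuronal genes, led by the sodium channel Scn7a, held 305, 291, 214 and 326 CPM in the members, above the 215, 127, 97.3 and 154 CPM of other nuclei. Higd1b, a pericyte gene, was at 0 in MTZ-after and high-fat members, and Sox10, the Schwann cell factor, was at 0 in all members but the untreated ones. The macrophage list thus stood highest and the fibroblast list lowest in high-fat members. The part of either list in the ratios below was not tested.

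Beyond the rule genes, 10 genes had the highest minimum ratio of members over other nuclei in the 4 libraries, among them genes for matrix proteins and secreted factors. As members were chosen by marker detection, these ratios are a description. Sema3c, a secreted guidance factor, stood 4.09-fold above other nuclei in MTZ-after, 3.80-fold in MTZ-simultaneous, 5.57-fold in high-fat and 6.53-fold in untreated. Adamts5, a protease that cuts aggrecan and versican, stood 3.596, 4.59, 5.05 and 7.80-fold above other nuclei, and Fgf7, a growth factor for epithelia, 3.82, 5.89, 3.75 and 7.48-fold. Fbn1, which encodes the microfibril protein fibrillin-1, held 1027 CPM in MTZ-after members, 712 in MTZ-simultaneous, 954 in high-fat and 1593 in untreated members, and stood 3.43, 3.35, 3.76 and 6.74-fold above other nuclei. Ddr2, a collagen receptor kinase, stood 3.33, 4.81, 4.29 and 8.54-fold above them. The other genes of this kind were the aminopeptidase gene Lvrn, the adhesion receptor gene Adgrd1, and Medag, Plcxd3 and Clip4, whose lowest ratio over the 4 libraries lay between 3.35 and 3.90. Each of these 10 genes stood highest over other nuclei in the untreated library. In all 4 libraries 87 genes outside the rule stood at least 2-fold above other nuclei.

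The share of members was lowest in the high-fat library. Members made up 2.83% of kept nuclei in MTZ-after (interval 2.64 to 3.03), 5.11% in MTZ-simultaneous (4.80 to 5.43), 1.34% in high-fat (1.23 to 1.46) and 7.30% in untreated (6.96 to 7.65). The ratio of shares was 0.183 for high-fat over untreated, 2.11 for MTZ-after over high-fat and 3.82 for MTZ-simultaneous over high-fat. Since a deeper nucleus shows more markers, the rule was also applied after every nucleus was thinned at random to 500 UMIs, which no kept nucleus fell below. The shares were then 0.630% (0.541 to 0.730), 1.03% (0.890 to 1.18), 0.287% (0.235 to 0.346) and 1.99% (1.81 to 2.18), in the same order of libraries. The libraries also held different amounts of fat, mesothelium and adrenal cortex. With nuclei of such tissue left out of the base, the shares were 3.68% in MTZ-after, 8.09% in MTZ-simultaneous, 1.60% in high-fat and 16.9% in untreated. These nuclei were found by tissue markers detected at full depth, and members were never left out, so this base was not matched for depth. It held 21600 of 28093 kept nuclei in MTZ-after and 12162 of 19261 in MTZ-simultaneous. In high-fat it held 31745 of 38016 and in untreated 9641 of 22339. The order of the libraries was the same in all 3 counts. Markers detected per nucleus set these shares, so fewer fibroblast nuclei and less of the marker RNA per nucleus cannot be told apart.

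**Figure D2:**
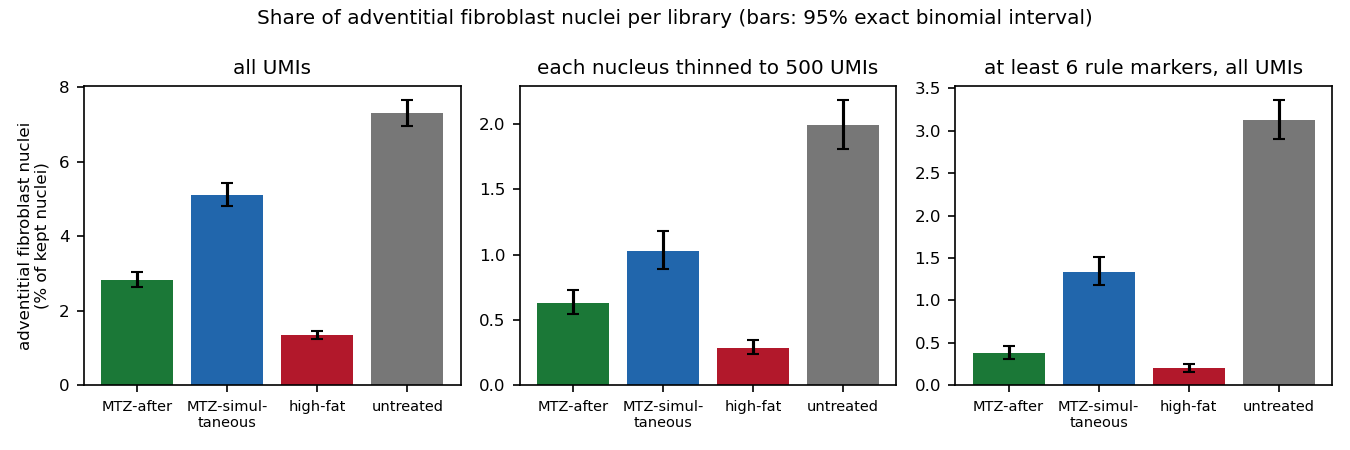
Share of adventitial fibroblast nuclei among kept nuclei in each library (percent, y axis). Panels show the rule as given, the rule after thinning to 500 UMIs, and members with at least 6 rule markers at full depth. Error bars are exact 95% binomial intervals. In each panel the high-fat library is lowest (1.34, 0.287 and 0.197%) and the untreated library highest (7.30, 1.99 and 3.12%).

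High-fat food alone was compared with no treatment by the CPM ratio in members. A gene counts as higher at a ratio of at least 2 and as lower at a ratio of at most 0.5, where the library with the higher level holds at least 50 counts. Of 9415 genes with at least 50 counts in the members of either library, 282 (3%) were higher and 562 (5.97%) were lower in high-fat members. High-fat members held 898473 UMIs and untreated members 4646932, so a call of higher needed a higher CPM than a call of lower. The 2 shares are therefore not matched, and counts of higher and lower genes per list carry the same limit. In high-fat members 0 of the 282 higher genes stood at least 2-fold above other nuclei. No gene given below as higher in high-fat is thus enriched in members by that measure. In untreated members 206 of the 562 lower genes stood so, a filter read in another library. Of the 87 genes enriched in all libraries, 31 were lower, 0 were higher and 86 had a log2 ratio below 0. Their median log2 ratio was -0.89 in all members, -0.53 in members with at least 6 markers and -0.09 in other nuclei, against 0.06 over all genes in members. Scaling by trimmed means (TMM) in place of the total shifted the all-gene median log2 ratio by -0.18 in this comparison and by 0.01 and 0.03 in the other two. The summed fibroblast marker list was itself lower, with a ratio of 0.517 in members, 0.601 in members with at least 6 markers and 0.691 in other nuclei. Macrophage genes had a ratio of 4.05 in members and 2.97 in other nuclei, and endothelial genes 1.64 and 1.19.

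Immediate early genes, which are transcribed within minutes of a stimulus without new protein synthesis, stood low in high-fat members. Of 22 genes on this list 21 were measured deeply enough. Among them 10 were lower and 0 higher in high-fat than in untreated members. All but Egr2 had a log2 ratio below 0 (21 of 22), and the median was -0.96 in members, -1.04 in members with at least 6 markers and -0.18 in other nuclei. Nr4a3, an orphan nuclear receptor on chromosome 4 (48045153 to 48086447, plus strand), had 3 counts (3.34 CPM) in high-fat members and 453 (97.5 CPM) in untreated members. Its ratio was 0.0343 (interval 0.00704 to 0.101) in members and 0.326 in other nuclei. Its relative Nr4a1 stood at 49.0 CPM in high-fat members and 263 CPM in untreated members, with a ratio of 0.186 (0.134 to 0.251), and at 0.310 in other nuclei. Nr4a2, the remaining receptor of the family, stood at 13.4 and 37.4 CPM in high-fat and untreated members (0.357, 0.181 to 0.639, other nuclei 0.416). Fosb, a partner of Jun proteins in AP-1, stood at 16.7 CPM in high-fat and 115 CPM in untreated members, a ratio of 0.146 (0.0809 to 0.242) against 0.399 in other nuclei. The zinc finger factor Egr1 stood at 158 and 413 CPM in high-fat and untreated members, with a ratio of 0.383 (0.320 to 0.454) in members and 0.887 in other nuclei. Ier2 (ratio 0.406), the stress factor Atf3 (0.475), the pluripotency factor Klf4 (0.471), the MAP kinase phosphatase Dusp1 (0.474) and the antiproliferative gene Btg2 (0.393) were also lower in high-fat members. In other nuclei the ratios of these 5 genes were 0.896, 0.985, 0.563, 0.733 and 0.489. The receptor genes of the Nr4a family were therefore low in high-fat nuclei of both kinds, while Egr1, Ier2 and Atf3 were low in members and near 1 in other nuclei.

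The levels of these genes in the MTZ libraries are given as a description, since the genes were chosen for low levels in the high-fat library that is also the base of both MTZ comparisons. Nr4a1 held 128 CPM in MTZ-after members and 91.7 CPM in MTZ-simultaneous members, against 49.0 CPM in high-fat members. Nr4a2 held 57.5 CPM in MTZ-after and 26.9 CPM in MTZ-simultaneous members. Nr4a3 held 16.4 and 21.7 CPM in the MTZ-after and MTZ-simultaneous members, from 20 and 50 counts. Fosb held 61.6 CPM in MTZ-after and 31.7 CPM in MTZ-simultaneous members, and Egr1 268 and 208 CPM. Over the whole list the median log2 ratio over high-fat was 0.55 in MTZ-after members (0.30 in other nuclei) and 0.16 in MTZ-simultaneous members (-0.02 in other nuclei). Higher by the 2-fold rule in MTZ-after members were Nr4a2 (ratio 4.31, 2.32 to 8.73), Fosb (3.69, 2.10 to 6.92) and Nr4a1 (2.62, 1.86 to 3.75). In MTZ-simultaneous members these were Nr4a3 (6.51, 2.10 to 32.6), Nr4a2 (2.02) and Ier3 (2.19).

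**Figure D3:**
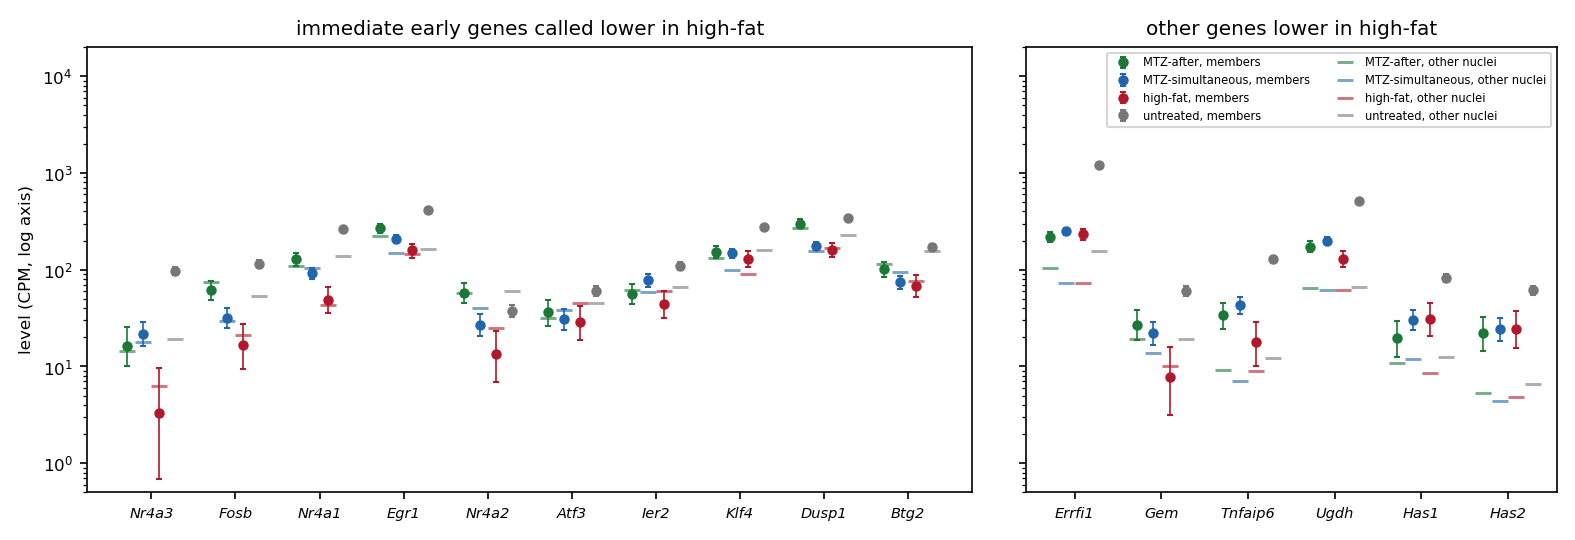
Level (CPM, log axis) of the 10 immediate early genes that were lower in high-fat than in untreated members, and of other genes lower in high-fat members, in the members (points, with exact 95% Poisson intervals) and in other kept nuclei (dashes) of each library. The 10 genes were chosen for low high-fat levels, with Nr4a3 at 3.34 CPM in high-fat and 97.5 CPM in untreated members.

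The promoters of the lower immediate early genes are shown because these genes stood low together. RefSeq windows of 250 bases before the transcription start (GRCm38.p6) were available for 8 of the 10 genes; Egr1 and Ier2 were not in the table. The full cAMP response element TGACGTCA was found in 2 of 8 windows (Dusp1 and Btg2), against 1.55% of all 32851 windows. The AP-1 site TGANTCA was found in 0 of 8 (6.75% of all windows) and the CArG box bound by serum response factor in 0 of 8 (1.47%). The core TGACG of the cAMP response element, which lies within the full element and was chosen after the windows were seen, was found in 8 of 8 windows, against 17.8% of all windows. Of the windows of the list's other genes 8 of 17 held it. In each search both strands were read. At least 3 cores occurred in the windows of Nr4a1, Nr4a2, Nr4a3 and Dusp1, and in 0.688% of all windows. The sequences run 5′ to 3′ on the strand of the gene, end at the start site or at the nearest annotated exon before it, and have the cores, read on either strand, in capitals. They lie at chr4:48045055-48045152 (plus strand, Nr4a3), chr2:57124004-57124253 (minus strand, Nr4a2), chr15:101266596-101266845 (plus strand, Nr4a1, an internal start of the gene) and chr7:19310052-19310295 (minus strand, Fosb).
Nr4a3: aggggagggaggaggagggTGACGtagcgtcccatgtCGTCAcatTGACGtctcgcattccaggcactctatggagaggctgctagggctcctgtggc
Nr4a2: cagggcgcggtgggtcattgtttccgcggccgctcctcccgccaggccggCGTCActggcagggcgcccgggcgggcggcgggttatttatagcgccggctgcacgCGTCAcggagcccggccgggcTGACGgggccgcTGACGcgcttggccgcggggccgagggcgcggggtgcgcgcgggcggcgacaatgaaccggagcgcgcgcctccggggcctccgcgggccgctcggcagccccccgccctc
Nr4a1: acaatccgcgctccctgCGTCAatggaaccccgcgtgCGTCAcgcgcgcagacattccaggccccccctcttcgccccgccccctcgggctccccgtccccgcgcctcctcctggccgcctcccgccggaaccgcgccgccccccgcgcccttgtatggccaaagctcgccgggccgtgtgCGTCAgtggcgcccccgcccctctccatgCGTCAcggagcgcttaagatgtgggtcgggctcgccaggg
Fosb: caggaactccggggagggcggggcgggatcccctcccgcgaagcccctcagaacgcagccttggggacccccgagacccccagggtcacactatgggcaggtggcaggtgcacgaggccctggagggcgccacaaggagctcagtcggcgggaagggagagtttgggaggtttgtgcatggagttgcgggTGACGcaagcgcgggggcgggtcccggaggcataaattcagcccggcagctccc
A match describes the letters of the window and is neither a bound site nor a cause of the levels.

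Errfi1, which encodes a feedback inhibitor of the EGF receptor, was 1 of the 8 genes named by rule as lower in high-fat members. The rule also asked for a level at least 2-fold above other nuclei in untreated members, the library where these genes were high. For these 8 genes a lower ratio in members than in other nuclei is thus partly set by the choice, and the contrast is a description. Errfi1 lies on chromosome 4 (150853919 to 150868892, plus strand). It stood at 220 CPM in MTZ-after members, 249 in MTZ-simultaneous, 233 in high-fat and 1211 in untreated members, so that 3 libraries lay close together and the untreated library stood apart. The ratio of high-fat over untreated was 0.192 (0.166 to 0.221) in members, 0.351 in members with at least 6 markers and 0.462 in other nuclei. Errfi1 was detected in 22.8% of MTZ-after members, 29.2% of MTZ-simultaneous, 23.0% of high-fat and 64.9% of untreated members. After thinning to 500 UMIs the shares were 10.8, 11.6, 12.0 and 33.5%. In T-marker nuclei, unthinned, Errfi1 was detected in 7.65, 10.6, 10.2 and 22.2%.

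Among the genes named by rule as lower in high-fat members, Tnfaip6 and Ugdh act on hyaluronan, the large sugar polymer of the adventitial matrix. The hyaluronan synthase genes Has1 and Has2 were added after their values were seen, so the 4 genes say nothing of hyaluronan genes as a group. Ugdh, whose enzyme makes the UDP-glucuronic acid used in hyaluronan, stood at 173 CPM in MTZ-after members, 199.9 in MTZ-simultaneous, 129 in high-fat and 512 in untreated members. Its ratio of high-fat over untreated was 0.252 (0.207 to 0.304) in members, 0.256 in members with at least 6 markers and 0.924 in other nuclei. Tnfaip6, which transfers heavy chains onto hyaluronan, stood at 33.7, 43.0, 17.8 and 128 CPM in MTZ-after, MTZ-simultaneous, high-fat and untreated members, with a ratio of high-fat over untreated of 0.140 (0.0792 to 0.229) against 0.734 in other nuclei. Has1 and Has2 had ratios of 0.380 (0.249 to 0.558) and 0.401 (0.247 to 0.619) in members and 0.687 and 0.738 in other nuclei. Over high-fat, Tnfaip6 was higher in MTZ-simultaneous members (2.42), whereas Ugdh (1.55), Has1 (0.976) and Has2 (0.994) were not called. With at least 6 markers the ratio of Tnfaip6 was 1.39, below the 2-fold rule. In MTZ-after members Ugdh had a ratio of 1.34 over high-fat and was not called. Tnfaip6 had a ratio of 1.89 there, with too few counts to be tested.

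The other genes named by rule as lower in high-fat members were Gem, Gpc3 and Ppp2r2b. Gpc3, a cell-surface heparan sulfate proteoglycan on the X chromosome (52272426 to 52613950, minus strand), stood at 154 CPM in MTZ-after, 392 in MTZ-simultaneous, 71.2 in high-fat and 331 in untreated members. Its ratio of high-fat over untreated was 0.215 (0.165 to 0.276) in members and 0.257 in other nuclei, so members and other nuclei differed alike between these libraries. Gem, a small GTPase that dampens calcium channels, stood at 7.79 CPM in high-fat and 60.0 CPM in untreated members (ratio 0.130, 0.0517 to 0.271, other nuclei 0.534). Ppp2r2b, a regulatory subunit of protein phosphatase 2A, stood at 21.1 and 116 CPM in high-fat and untreated members (0.182, other nuclei 0.207).

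The median ratio of collagen genes had opposite signs in members and in other nuclei. Of 15 fibrillar and associated collagen genes measured deeply enough, 1 was higher and 2 were lower in high-fat members, and the median log2 ratio was -0.61 in members and 0.58 in other nuclei. Of 17 such genes with at least 10 counts, 9 had ratios below 1 in members and above 1 in other nuclei, and 0 did the opposite. Col3a1, the chain of type III collagen, stood at 619.9 CPM in high-fat members and 1163 CPM in untreated members, a ratio of 0.533 (0.488 to 0.582). In other nuclei it stood at 547 CPM in high-fat and 299 CPM in untreated, a ratio of 1.83. Col1a1, a chain of type I collagen, stood at 318 CPM in high-fat and 227 CPM in untreated members (ratio 1.403, 1.23 to 1.60), and at 464 and 97.3 CPM in high-fat and untreated other nuclei (4.77). Members were thus the richer nuclei in Col1a1 in the untreated library and the poorer ones in the high-fat library. Col8a1, a short-chain collagen of vessel walls, was higher in high-fat members (445 against 193 CPM, ratio 2.31), and Col27a1 (23.4 against 86.7 CPM, 0.270) and Col6a6 (35.6 against 73.0 CPM, 0.488) were lower. Among basement membrane genes 0 of 14 were higher and 2 were lower, Col4a3 (0.327) and Col4a4 (0.428), with a median of -0.60.

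Elastic fibre, proteoglycan and matricellular genes went both ways. Elastic fibre genes had 3 higher and 2 lower of 18 in high-fat over untreated, with a median of 0.03 that turned negative under TMM scaling. Eln, which encodes elastin, stood at 1667 CPM in high-fat members and 711 CPM in untreated members (ratio 2.34), and at 2197 and 1103 CPM in other nuclei (1.99). Fbln5, which helps elastin assemble, stood at 393 and 167 CPM in high-fat and untreated members (2.35), and the latent TGF-beta binding protein gene Ltbp2 had a ratio of 3.45. Efemp1 (0.382) and Fbln1 (0.362), which encode fibulins, were lower. Of 8 small leucine-rich proteoglycan genes, Lum (2.62) and Bgn (2.05) were higher and Ogn (0.354) was lower in high-fat members, with a median of -0.58. In other nuclei the ratio of Lum was 6.01. Of 15 matricellular genes 3 were higher and 1 was lower, with a median of 0.29 in members, -0.14 in members with at least 6 markers and 0.85 in other nuclei. Spp1, a macrophage product here on the marker list of that type, had a ratio of 4.93 (4.63 to 5.24) in members and 4.61 in other nuclei. Thbs1, which encodes thrombospondin-1, stood at 193 CPM in high-fat and 49.5 CPM in untreated members (3.89, other nuclei 3.87), and Abi3bp was lower (0.461). Matrix protease genes were lower only, with 5 of 16 in members and a median of -0.20: Adamts12 (0.363), Adamtsl1 (0.390), Adamts1 (0.413), Adamts5 (0.481) and Adamts9 (0.493).

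Genes linked to contractile fibroblasts gave more higher than lower calls, and no higher gene stood 2-fold above other nuclei in high-fat members. Of 8 myofibroblast genes 4 were higher and 1 was lower in high-fat members, and the median log2 ratio was 1.09 in members, 0.37 in members with at least 6 markers and 0.73 in other nuclei. Acta2, smooth muscle actin, stood at 178 CPM in high-fat members and 69.7 CPM in untreated members (2.55, other nuclei 2.15), and Tagln, transgelin, at 55.6 and 18.9 CPM (2.94). Both are also on the smooth muscle list, which had a ratio of 1.43 in members and 1.02 in members with at least 6 markers, and whose part in these levels was not tested. Fap, a protease of activated fibroblasts, was lower in high-fat members at 61.2 CPM against 156 CPM in untreated members (0.391), with a ratio of 0.851 in other nuclei.

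Both sets of fibroblast subtype genes stood lower in high-fat members. Pi16-type genes had 2 lower of 8 and a median log2 ratio of -0.86 (-0.50 with at least 6 markers, -0.15 in other nuclei). The lower genes were Adgrd1, at 177 CPM in high-fat and 448 CPM in untreated members (0.395), and Sema3c, at 401 and 812 CPM (0.494). Col15a1-type genes had 3 lower of 8 and a median of -0.87 (-0.69 with at least 6 markers, -0.26 in other nuclei). Among these, Smoc2, a matricellular calcium-binding protein, stood at 37.8 CPM in high-fat and 102 CPM in untreated members (0.369), and Inmt had a ratio of 0.461. Adipogenic genes had 4 lower of 17 and a median of -0.67. Ebf2, a factor of adipocyte precursors, stood at 749 CPM in high-fat and 1776 CPM in untreated members (0.422, other nuclei 0.236), and Pparg, the receptor that drives adipogenesis, at 434 and 898 CPM (0.484). Fgf10, a growth factor of fat precursors, had a ratio of 0.366.

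Secreted signals differed in both directions between high-fat and untreated members. Of 22 TGF-beta and BMP genes 3 were higher and 3 lower, with a median of -0.11. Bmp4 stood at 117 CPM in high-fat and 31.8 CPM in untreated members (3.67), Bmp6 at 1180 and 446 CPM (2.64), and the activin antagonist Fst had a ratio of 0.306. Of 18 Wnt pathway genes 1 was higher and 5 were lower, with a median of -0.55. Lgr6, a receptor for R-spondins, stood at 15.6 CPM in high-fat and 121 CPM in untreated members (0.129, other nuclei 0.111), while the Wnt antagonist Sfrp1 was higher (2.28). Of 23 insulin-like and other growth factor genes 3 were higher and 4 lower. Igfbp6, which binds insulin-like growth factors, stood at 5.57 CPM in high-fat and 42.8 CPM in untreated members (0.130, 0.0417 to 0.308, other nuclei 0.160), and the ligand Pdgfc at 225 and 74.9 CPM (3.00). Of 14 complement genes C3, the central component, was lower (59.0 against 179 CPM, 0.330) and Clu was higher (2.38), and of 13 chemokine and cytokine genes 3 were lower, Ccl11 (0.323), Ccl7 (0.390) and Il1rl2 (0.390). Guidance genes had 1 higher and 4 lower of 18, among them Sema3d (0.347) and Sema3e (0.356). Genes of innervation and ion channels had 1 higher and 8 lower of 20, with a median of -0.38. Piezo2, a mechanically gated channel, stood at 17.8 CPM in high-fat and 77.5 CPM in untreated members (0.230), and the glutamate receptor gene Grik2 at 5.57 and 38.7 CPM (0.144).

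Lipid and hormone response genes also differed. The cholesterol exporters Abca1 (1324.5 CPM in high-fat and 609 CPM in untreated members, ratio 2.17) and Abcg1 (190 and 49.5 CPM, 3.85) were the 2 higher genes of 20 for lipid handling. Among the 5 lower genes were the lipocalin gene Apod (0.181) and Insig1 (0.308), which restrains sterol synthesis. In other nuclei Abca1 and Abcg1 had ratios of 2.03 and 2.18. Glucocorticoid response genes had 1 higher and 4 lower of 15 with a median of -0.38, among them Pdk4, a kinase that limits glucose oxidation, at 62.3 CPM in high-fat and 278 CPM in untreated members (0.224, other nuclei 0.164). Interferon response genes had 2 higher and 0 lower of 15 with a median of 0.57 (0.63 in other nuclei), led by the GTPase gene Iigp1 (171 against 43.9 CPM, 3.90). Of 18 genes of oxidative phosphorylation 1 was lower (Ndufb8, 0.427), and the median was -0.55 in members and -0.84 in other nuclei. Of 11 bicarbonate and proton transport genes 2 were lower, the sodium bicarbonate cotransporter Slc4a4 (550 against 1674 CPM, 0.328, other nuclei 0.145) and the lactate transporter Slc16a1 (0.317). Circadian clock genes had 0 higher and 2 lower of 14, with a median of 0.12 that turned negative under TMM scaling. For endoplasmic reticulum stress (13 genes), senescence (5), proliferation (1) and carbonic anhydrases (5) no gene passed the 2-fold rule, with medians of 0.34 for the first, 0.57 for the second and -0.58 for the last.

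Part of the called genes also passed the ratio in the remaining nuclei of the libraries. Of the 282 genes higher in high-fat members 37.2% (105) had a ratio of at least 2 in other nuclei. Of the 562 lower genes 48.6% (273) had a ratio of at most 0.5 there. No count minimum was set for other nuclei. The share of all tested genes that pass these ratios there is not given, so the overlaps have no background in any comparison. Among higher genes named above, Eln, Spp1, Thbs1, Abca1 and Acta2 had ratios of at least 1.99 in other nuclei as well. The lower genes held both kinds: Gpc3, Lgr6, Igfbp6 and Pdk4 were also lower in other nuclei, where Ugdh (0.924) and Egr1 (0.887) had ratios near 1.

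**Figure D4:**
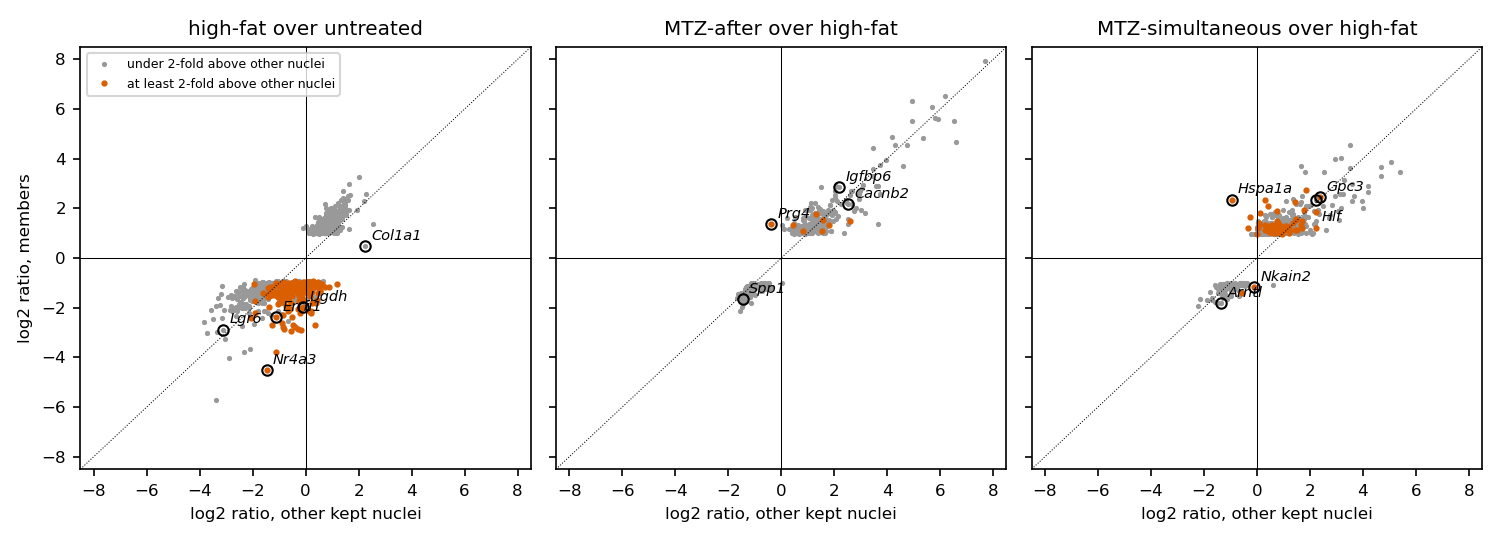
Log2 CPM ratio (pseudocount of 1 CPM) of each gene called higher or lower in members (y axis) against the ratio in other kept nuclei of the same libraries (x axis), 1 panel per comparison; orange points are genes at least 2-fold above other nuclei in the library with the higher level, and circled genes are named in the text whether called or not. In high-fat over untreated 282 genes were called higher and 562 lower. The colour reads the library with the higher level, so it does not compare the directions, and both MTZ panels use the high-fat library as their base.

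MTZ given after atherosclerosis was established was compared with high-fat food alone. Of 5182 genes tested in members, 246 (4.75%) were higher and 84 (1.62%) were lower in MTZ-after. Of these, 73.6% of the higher (181) and 64.3% of the lower genes (54) passed the same ratio in other nuclei, without a count minimum. The 87 enriched genes had a median log2 ratio of 0.12 in members (0.02 with at least 6 markers) and 0.42 in other nuclei, with 1 higher and 0 lower. The fibroblast marker list had a ratio of 1.17 and the macrophage list of 0.395 (0.428 in other nuclei).

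The genes named by rule as higher in MTZ-after members encode secreted or surface proteins for the most part. Igfbp5, a binding protein of insulin-like growth factors, stood at 846 CPM in MTZ-after, 643 in MTZ-simultaneous, 293 in high-fat and 807 in untreated members. Its ratio of MTZ-after over high-fat was 2.89 (2.52 to 3.32) in members and 2.99 in other nuclei, and 16.5% of its 1030 counts in MTZ-after members came from 1 nucleus. Gpc3 had a ratio of 2.16 (1.62 to 2.91, other nuclei 3.02). Prg4, the lubricating proteoglycan lubricin, stood at 41.9, 53.5, 15.6 and 16.8 CPM in MTZ-after, MTZ-simultaneous, high-fat and untreated members. Its ratio of MTZ-after over high-fat was 2.69 (1.47 to 5.26) in members, 5.39 (1.20 to 49.6) with at least 6 markers and 0.766 in other nuclei. The Wnt modulator gene Sfrp2 had a ratio of 2.58 (1.51 to 4.64, other nuclei 1.38), and Tmem100 of 2.15 (1.32 to 3.62, other nuclei 1.91). With at least 6 markers Igfbp5 had a ratio of 3.55 (2.76 to 4.61) and Gpc3 of 1.23 (0.729 to 2.10). Sfrp2 then had 2.92 (0.902 to 12.3) and Tmem100 2.47 (1.06 to 6.42). Clstn2, a calsyntenin (3.62), and Aox3, an aldehyde oxidase (2.91), had ratios of 0.359 (0.0342 to 2.19) and 0.599 (0.124 to 2.52) in these members. Both intervals reach from below 1 to above 2, so the direction of Clstn2 and Aox3 in members with at least 6 markers is not settled. Of these 7 genes Prg4 alone had a ratio below 1 in other nuclei.

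By list, the MTZ-after members had few calls. Innervation and ion channel genes had 6 higher and 0 lower of 14, with a median of 0.82 in members and 0.94 in other nuclei. Cacnb2, a calcium channel subunit, stood at 571 CPM in MTZ-after and 126 CPM in high-fat members (4.54, other nuclei 5.79), Kcnma1, a potassium channel, at 314 and 66.8 CPM (4.70), and Agtr1a, the angiotensin receptor that the adrenal cortex also carries, at 58.3 and 8.90 CPM (6.55, other nuclei 17.8). The adrenal cortex list stood at 269 CPM in MTZ-after and 3.34 CPM in high-fat members, and its part in these ratios and in that of Scarb1 below was not tested. Growth factor genes had 3 higher and 0 lower of 21, with Igfbp6 at 46.8 CPM in MTZ-after and 5.57 CPM in high-fat members (8.41, 3.40 to 26.9) and Fgf1 at 54.2 and 10.0 CPM (5.41). Basement membrane genes had 2 higher of 11, Col4a3 (2.88) and Col4a4 (2.14), and the collagens 1 of 12, Col27a1 (3.80). Among Wnt genes Lgr6 (3.59) and Sfrp2 were higher and Sfrp1 (0.471) was lower of 9. Of the Col15a1-type genes Fmo2, a monooxygenase, was higher (258 against 116 CPM, 2.23), and of the lipid genes Scarb1, the receptor for high-density lipoprotein, was higher (65.7 against 13.4 CPM, 4.92). Single genes were also higher in the proteoglycan (Ogn, 2.19) and glucocorticoid lists (Pdk4, 3.69), 2 each in the guidance (Unc5c, 2.84; Sema3d, 2.14) and circadian lists (Hlf, 4.43; Nr1d1, 2.13), and Spp1 was lower (0.320). Of the genes for endoplasmic reticulum stress 0 of 10 were called, 14 of 14 had a log2 ratio below 0, and the median was -0.53 in members and -0.42 in other nuclei. No gene was called for the Pi16-type, elastic fibre, myofibroblast, protease, complement, chemokine, TGF-beta and BMP, interferon, proliferation, senescence, carbonic anhydrase, bicarbonate transport and oxidative phosphorylation lists.

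MTZ given at the same time as the diet was compared with the same high-fat library. Of 7557 genes tested in members, 305 (4.04%) were higher and 69 (0.913%) were lower in MTZ-simultaneous. In other nuclei 48.9% (149) of the higher and 50.7% (35) of the lower genes passed the same ratio, without a count minimum. The 87 enriched genes had 9 higher and 0 lower, with a median of 0.44 in members, 0.28 with at least 6 markers and 0.41 in other nuclei. The fibroblast marker list had a ratio of 1.33 in members (0.994 in other nuclei), the macrophage list 0.399 and the endothelial list 0.726.

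Gpc3 led the genes named by rule as higher in MTZ-simultaneous members, with a ratio of 5.497 (4.26 to 7.20) in members and 5.45 in other nuclei. Ogn, the proteoglycan osteoglycin, stood at 70.7 CPM in MTZ-after, 98.6 in MTZ-simultaneous, 32.3 in high-fat and 91.2 in untreated members, a ratio of 3.06 (2.07 to 4.67) over high-fat in MTZ-simultaneous members. Adamtsl1, a protein related to matrix proteases, stood at 512, 733, 319 and 819 CPM in the same order (2.30, 2.02 to 2.61). In other nuclei the ratios of Ogn and Adamtsl1 were 2.91 and 4.70. With at least 6 markers they were 2.92 (1.49 to 6.55) and 1.62 (1.33 to 1.98), the latter below the 2-fold rule. The methyltransferase gene Inmt (3.99, 2.26 to 7.70) and Hhip, an antagonist of hedgehog ligands (5.47, 2.23 to 17.4), had ratios of 4.07 and 3.45 in other nuclei. For Gpc3, Ogn, Adamtsl1 and Inmt the MTZ-simultaneous and untreated members stood above both remaining libraries. Saa3, an acute phase apolipoprotein, had 64 counts in MTZ-simultaneous and 3 in high-fat members (8.33, 2.72 to 41.5), 21 of them in 1 nucleus. Saa3 was detected in 2.95% of MTZ-simultaneous members and in 4.26% of T-marker nuclei of that library, so its share of members did not stand above that background. The heat shock gene Hspa1a had a ratio of 5.38, and 91.2% of its 193 counts came from 1 nucleus; without the 5% of members with the most UMIs its log2 ratio was -0.93. Named as lower were Adamts16, a metalloprotease (21.3 against 59.0 CPM, 0.361, 0.240 to 0.543), for which 34.0% of the 53 high-fat counts came from 1 nucleus, and Nkain2 (64.3 against 146 CPM, 0.441, 0.346 to 0.562), with a ratio of 0.285 in members with at least 6 markers and 0.930 in other nuclei.

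Several lists stood above high-fat in MTZ-simultaneous members. Col15a1-type genes had 4 higher and 0 lower of 5, with a median log2 ratio of 1.27 in members, 0.83 with at least 6 markers and 0.89 in other nuclei. These were Fmo2 (374 against 116 CPM, 3.23), Inmt, Gdf10 (2.50) and Smoc2 (2.43). Pi16-type genes had 0 calls of 8 and a median of 0.30. Small leucine-rich proteoglycan genes had 4 higher and 1 lower of 8 with a median of 0.77 (0.82 in other nuclei): Ogn, Podn (2.88), Aspn (2.22) and Dcn, which encodes decorin and stood at 878 CPM against 410 CPM in high-fat members (2.14), were higher, and Lum was lower (0.443). Complement genes had 4 higher and 0 lower of 13, with a median of 0.54 in members and 0.57 in other nuclei. C3 stood at 222 CPM in MTZ-simultaneous and 59.0 CPM in high-fat members (3.77, 2.84 to 5.10), and Cfb (2.99), C2 (2.66) and C1ra (2.08) were also higher. Wnt pathway genes had 5 higher and 0 lower of 13 and a median of 0.91 (0.57 in other nuclei), among them the R-spondin gene Rspo1 (27.8 against 6.68 CPM, 4.16), Lgr6 (2.73), Dkk3 (2.46) and Sfrp4 (189 against 86.8 CPM, 2.18). Growth factor genes had 3 higher and 1 lower of 23, with Igfbp6 at a ratio of 10.4 (4.34 to 32.5), Fgf1 at 5.12, Igfbp5 at 2.20 and Pdgfc lower at 0.367. Elastic fibre genes had 3 higher, Fbln1 (2.88), Efemp1 (2.56) and Emilin2 (2.04), and 1 lower of 16, Fbln5 (0.487). Innervation and ion channel genes had 5 higher and 0 lower of 17, including Grik2 (4.84) and Piezo2 (4.76).

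The circadian clock list had the most calls in MTZ-simultaneous members, with 6 higher and 2 lower of 14. Hlf, a clock output factor, stood at 54.2 CPM in MTZ-after, 66.1 in MTZ-simultaneous, 12.2 in high-fat and 16.8 in untreated members (5.40 over high-fat in MTZ-simultaneous members). Dbp, a relative of Hlf, stood at 23.0, 58.2, 14.5 and 3.01 CPM (4.02), and Nr1d1, the repressor Rev-erb alpha, at 42.7, 65.6, 20.03 and 15.7 CPM (3.28). Arntl, which encodes the activator Bmal1 that Nr1d1 represses, stood at 69.8, 19.99, 72.3 and 122 CPM, a ratio of 0.276 (0.185 to 0.409), and Npas2 had a ratio of 0.390. The output genes were thus highest and Arntl lowest in the MTZ-simultaneous library. The list's median log2 ratio was 0.76 in members and 0.87 in other nuclei. The sources used here do not give the time of day at which tissue was taken.

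Remaining lists had few calls in MTZ-simultaneous over high-fat members. Lipid handling had 3 higher (Abca9, 2.57; Scarb1, 2.34; Abca8b, 2.29), glucocorticoid response 2 (Per1, 2.44; Pdk4, 2.24), guidance 2 (Unc5c, 2.30; Sema3d, 2.09) and TGF-beta and BMP 2 (among them Gdf10). The collagens (Col12a1, 2.37), basement membrane (Col4a3, 2.21), myofibroblast (Fap, 2.20), chemokine (Tnfsf13b, 2.14), adipogenic (Gpc3), protease (Adamtsl1) and oxidative phosphorylation lists (Ndufb8) had 1 higher each. Spp1 (0.319) and Iigp1 (0.459) were lower. For endoplasmic reticulum stress 0 of 11 were called, with 15 of 15 log2 ratios below 0 and a median of -0.45. Carbonic anhydrase genes had 0 calls of 4 and a median of 0.37. Car3, which is abundant in fat and muscle, stood at 320 CPM in MTZ-after, 496 in MTZ-simultaneous, 454 in high-fat and 368 in untreated members, and Car8, which lacks enzyme activity, at 137, 129, 94.6 and 150 CPM. Car2, Car4, Car5a, Car6, Car7, Car9, Car10 and Car12 each had at most 11 counts in the members of any library.

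**Figure D5:**
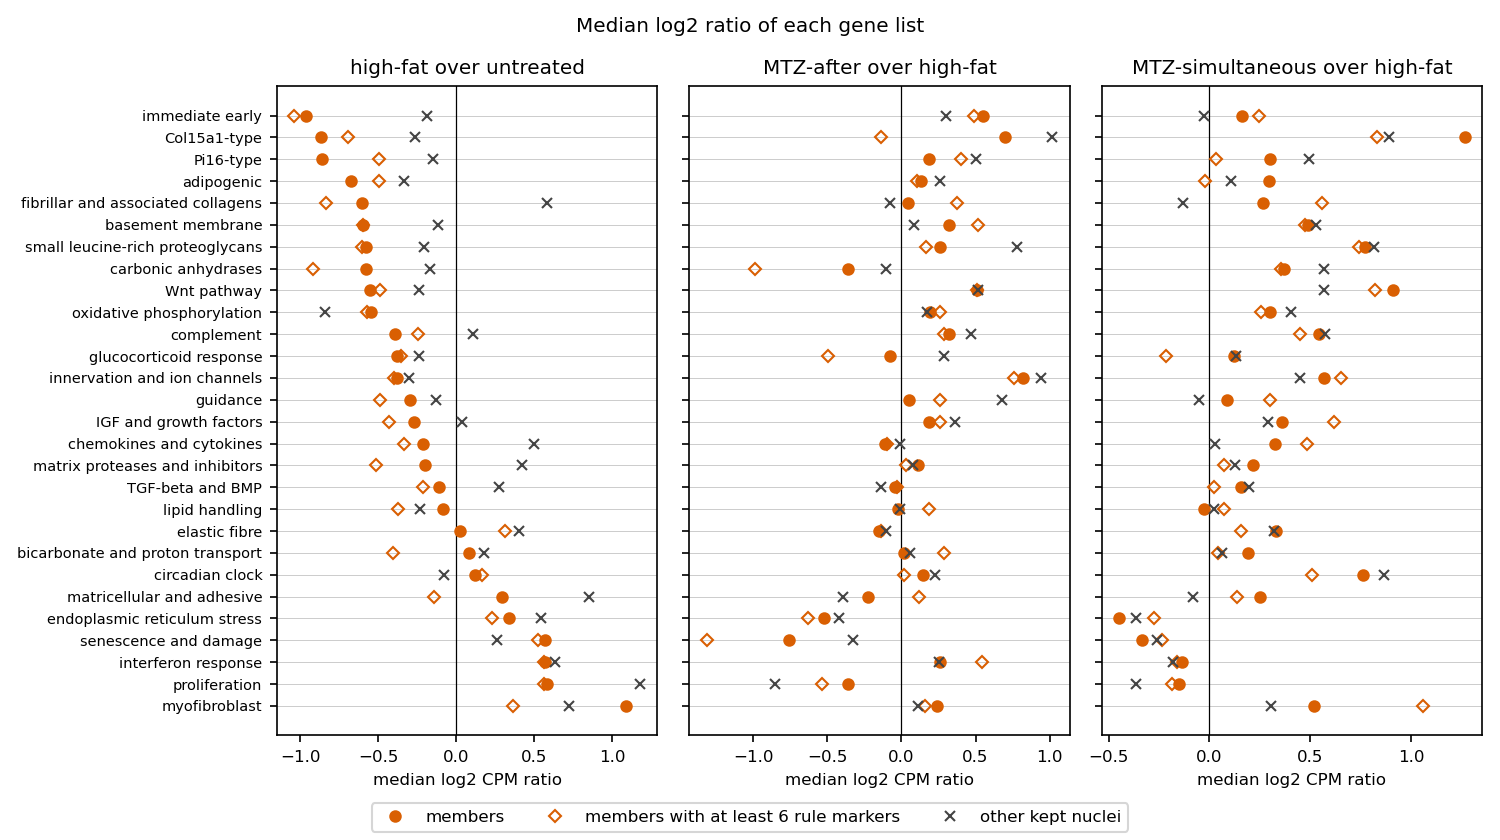
Median log2 CPM ratio of each gene list (x axis) in members (filled circles), in members with at least 6 rule markers (open diamonds) and in other kept nuclei, 1 panel per comparison. The immediate early list lies at -0.96 in high-fat over untreated members and at -0.18 in other nuclei, and the Col15a1-type list at 1.27 in MTZ-simultaneous over high-fat members.

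Within the members, the balance of Pi16-type and Col15a1-type genes was described in each library. A member leaned to one type when it had at least 2 more detected genes of that list than of the other. Pi16 itself, a gene of the membership rule, was counted on the Pi16-type list for this split. The Pi16-leaning shares are therefore partly set by how members were chosen. Pi16-leaning members made up 45.6% of MTZ-after (362), 52.0% of MTZ-simultaneous (512), 53.4% of high-fat (272) and 63.2% of untreated members (1030). Col15a1-leaning members made up 2.64% (21), 5.39% (53), 1.57% (8) and 4.17% (68) in the same order. Among members with at least 6 markers the Pi16-leaning numbered 79 of 106 in MTZ-after, 158 of 257 in MTZ-simultaneous, 54 of 75 in high-fat and 495 of 698 in untreated, which is another order of the libraries. Leaning was read from detected genes and was not matched for depth, which differed between the libraries. The rule markers favour the Pi16 type, and 261, 262, 156 and 356 members were 1 gene short of either side. The genes that follow were chosen after their values were seen, for a difference in the same direction in 4 of 4 libraries, and are a description. Gria4, a glutamate receptor subunit, stood at 291 CPM in Pi16-leaning and 1615 CPM in Col15a1-leaning members of MTZ-after. Pi16-leaning and Col15a1-leaning members held 325 and 1734 CPM in MTZ-simultaneous, 170 and 1336 CPM in high-fat, and 374 and 1038 CPM in untreated. Ccbe1, a secreted factor of lymphatic growth, stood at 189, 215, 125 and 201 CPM in Pi16-leaning members of MTZ-after, MTZ-simultaneous, high-fat and untreated, and at 487, 1564, 297 and 1223 CPM in Col15a1-leaning members. Efhd1 and Pla1a were picked from the other direction. Efhd1, a mitochondrial calcium-binding protein, stood at 112, 75.5, 70.4 and 131 CPM in Pi16-leaning members and at 0, 13.1, 0 and 5.30 CPM in Col15a1-leaning members. Pla1a, a phospholipase, stood at 81.7, 89.9, 52.3 and 120.0 CPM in Pi16-leaning members, and at 0 in Col15a1-leaning members of MTZ-after, MTZ-simultaneous and high-fat and 10.6 CPM in untreated. The high-fat values rest on 8 Col15a1-leaning nuclei.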

How the data were processed

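The deposited files were 1 filtered matrix of whole-number UMI counts per library. Per the file headers these counts came from Cell Ranger 7.0.1, with the aligner STAR and mouse build mm10 listed in the submitters' processing notes. Per the labels' protocols nuclei were released with a detergent lysis buffer and sequenced from the 10x Genomics 3' kit. The sources used here do not say whether reads in introns were counted. Of 32285 gene identifiers, 99.6% (32158) were in GENCODE vM21 of GRCm38.

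Kept nuclei had at least 300 genes and at most 10% mitochondrial UMIs, which left 28093, 19261, 38016 and 22339 of 28116, 19335, 38114 and 22413 nuclei in MTZ-after, MTZ-simultaneous, high-fat and untreated. Total UMIs were 31517272, 37962370, 50358151 and 69201159. Doublets were not removed in the main values. An alternative left out the nuclei with the highest Scrublet scores (7.43, 7.37, 7.77 and 7.97% of kept nuclei, scanpy 1.11.5).

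Counts were summed over members in each library and divided by their total. Ratios have exact conditional intervals, CPM exact Poisson and shares exact Clopper-Pearson intervals, all at 95%, from Python 3.11.15 with numpy 2.4.6, scipy 1.17.1 and pandas 2.3.3. A gene was tested when it had at least 50 counts in the members of either library of a comparison. It was called at a ratio of at least 2 or at most 0.5, with at least 50 counts in the higher library. List medians used log2 ratios with a pseudocount of 1 CPM over genes with at least 10 counts in both libraries together. TMM factors came from edgeR 4.0.16 in R 4.3.3, with no edgeR test. Named genes were the up to 8 highest and 8 lowest called genes per comparison by the interval bound nearest to 1, plus up to 4 called genes per list. The highest and lowest were taken among genes at least 2-fold above other nuclei in the library with the higher level. For the identity of members they were the 10 genes with the highest minimum ratio over 4 libraries. Mitochondrial, ribosomal protein, haemoglobin and rule genes, Xist, Tsix, Y-linked genes and unnamed gene models were left out. 1 gene chosen by these rules is not reported here. The members, the 28 gene lists and the 12 marker lists were chosen with earlier results of these data known. The calculation was tested on simulated counts. Promoter windows came from RefSeq (GRCm38.p6), and bases within GENCODE exons are not printed. T-marker nuclei numbered 183, 188, 216 and 388 in MTZ-after, MTZ-simultaneous, high-fat and untreated.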

Additional observations from a re-analysis of the deposited data

How the results depend on the processing

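Directions of the shares and the sides on which most calls fell held under the alternatives tried. None of these gave the libraries of a comparison equal summed UMIs, and high-fat members held the fewest. The sides therefore do not measure a balance of directions. Over all genes with at least 10 counts, 7841 log2 ratios lay above 0 and 6516 below in high-fat over untreated members. Over high-fat these numbers were 6312 and 6400 in MTZ-after, and 7391 and 6207 in MTZ-simultaneous. The counts of called genes, and which genes were called, depended on how members were chosen, on scaling and on the count minimum. Under TMM scaling 197 genes were higher and 839 lower in high-fat over untreated members. These counts were 258 and 80 in MTZ-after and 330 and 61 in MTZ-simultaneous, each over high-fat. Relative to other nuclei, 15 of the 246 higher and 1 of the 84 lower genes of MTZ-after over high-fat were called again. Each group had 1 library, so no replicate could be left out. No paired analysis was possible because each group had 1 library. The settings with at least 6 markers and with ratios relative to other nuclei were chosen after seeing the data. In high-fat over untreated members 282 genes were higher. This count was 504 with at least 3 markers, 145 with at least 5, 51 with at least 6, 69 with no exclusion gene, 40 with the rule applied to thinned nuclei, and 93 with members thinned to equal depth. It was 3227 with no minimum count, 574 with a minimum of 20, 1 among genes above T-marker nuclei, and 32 relative to other nuclei. The 562 lower genes were 252 with members thinned, 4891 with no minimum, 998 with a minimum of 20, 236 above T-marker nuclei, and 307 relative to other nuclei. In MTZ-after over high-fat members the 246 higher genes were 497 with at least 3 markers, 84 with at least 5, 39 with at least 6, 87 with no exclusion gene, 31 with the rule on thinned nuclei, 77 with members thinned, 4764 with no minimum, 636 with a minimum of 20, 35 above T-marker nuclei, and 16 relative to other nuclei. In the same order of settings the 84 lower genes were 145, 52, 22, 31, 20, 31, 2204, 241, 0 and 15. In MTZ-simultaneous over high-fat members the 305 higher genes were 126 with no exclusion gene, 95 with the rule on thinned nuclei, 91 with members thinned, 4774 with no minimum, 739 with a minimum of 20, 112 above T-marker nuclei, and 65 relative to other nuclei. In this order the 69 lower genes were 31, 24, 33, 2187, 181, 3 and 10, with 111 for at least 3 markers and 24 for at least 6.

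The ratio of member shares in high-fat over untreated, 0.183, was 0.338 with at least 3 markers, 0.101 with at least 5, 0.0631 with at least 6, 0.150 with no exclusion gene, 0.144 after thinning, and 0.0948 without surrounding tissue. In MTZ-after over high-fat, 2.11 became 2.57 with no exclusion gene and 2.37 with the stricter nucleus filter. In MTZ-simultaneous over high-fat, 3.82 became 2.60, 5.28 and 6.76 with at least 3, 5 and 6 markers and 5.05 without surrounding tissue. Among list medians of at least 0.5 in size on the log2 scale, 9 changed sign when taken relative to other nuclei: Wnt 0.00032, interferon -0.19, proliferation -0.52 and oxidative phosphorylation 0.24 (high-fat over untreated), Col15a1-type -0.044 and innervation -0.17 (MTZ-after over high-fat), and myofibroblast -0.058, complement -0.093 and circadian clock -0.26 (MTZ-simultaneous over high-fat). With the rule on thinned nuclei, carbonic anhydrases (0.19, high-fat over untreated) and Adamts16 (0.11, MTZ-simultaneous over high-fat) changed sign. With at least 6 markers, Col15a1-type did (-0.14, MTZ-after over high-fat), and without the members with the most UMIs, Hspa1a did (-0.93, MTZ-simultaneous over high-fat). For the ratio relative to other nuclei the construction sets the change; elsewhere the cause was not tested. Of the values for single genes and lists, 1204 kept their direction and side, 99 (list medians) moved by at least 0.3 on the log2 scale and 19 fell short of the 2-fold rule. High-fat members held the fewest UMIs, so a call of higher in high-fat needs a higher CPM than a call on the opposite side. Levels of genes low in that library also rest on few counts.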
